A study of Mus musculus with 24 samples.

Results

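A set of 8 features was followed across cultured mouse CD4+ T cells and the extracellular vesicles (EVs) that such cells release: Steap2, Kcns3, Evc, 4933404O12Rik, Ccdc85c, Slc5a11, Cabp7 and Inpp5f. They were chosen by a measured value: of 4408 features, they are the 8 with the highest log2 fold change in small RNA counts of stimulated over resting cells. The values of that contrast are therefore given as description, with no test. All are protein-coding genes except 4933404O12Rik, a long intergenic non-coding RNA (lincRNA). The libraries are small RNA libraries, so a count is a short fragment assigned to the gene's name and not a measure of its mRNA. Where along the gene a fragment came from, and on which strand, was not analysed here.

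Spleens and lymph nodes of wild-type C57BL/6 mice were the source of the T cells, and all cultures were grown in high-glucose DMEM. Resting cultures had 2 days of stimulation, 1 day of expansion and 2 days of rest in medium with IL2 behind them, so they were previously activated cells and not naive ones. Stimulated cultures had been in contact for 3 days with anti-CD3 coated on the plate (2 µg/ml) and with soluble anti-CD28 (5 µg/ml). A further pair of cultures was stimulated for 3 days either with the solvent DMSO or with GW4869, an inhibitor of neutral sphingomyelinase (nSMase), an enzyme whose product ceramide takes part in vesicle release. The labels give no antibody dose for that pair and no dose of GW4869. EVs were taken from the medium of each kind of culture, and total RNA was extracted with Trizol. Each of the 8 groups (4 culture conditions, cells and EVs) held 3 libraries. The labels do not say whether the 3 were separate animals or cultures, so p-values measure only the spread between these libraries. Resting and stimulated cultures differed in culture time and earlier treatment as well as in stimulation. DMSO cultures differed from stimulated cultures in the vehicle and in whatever else set the pair apart, and these cannot be told apart.

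T cells that meet antigen through the T cell receptor and CD28 enlarge, raise ribosome production and divide, and they release more vesicles. Vesicles carry short RNAs, among them microRNAs and pieces of tRNA, rRNA, Y RNA and mRNA. Small RNA sequencing of total RNA recovers microRNAs together with breakdown products of longer transcripts. The 8 genes have no common pathway. Steap2 is a metalloreductase that reduces iron and copper at endosomal membranes. Kcns3 encodes a silent potassium channel subunit that alters the currents of other potassium channels. Slc5a11 is a sodium-coupled myo-inositol transporter. Evc acts at the base of the primary cilium in Hedgehog signalling, Cabp7 is a calcium-binding protein of the calmodulin superfamily, and Inpp5f is a phosphoinositide phosphatase of endosomes. Ccdc85c is a coiled-coil protein of cell junctions. The function of 4933404O12Rik is not established.

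In GRCm38 coordinates with GENCODE M21 annotation, 3 of the 8 lie on chromosome 5, 2 on chromosome 12, 2 on chromosome 7 and 1 on chromosome 11. Steap2 (ENSMUSG00000015653.13) spans chr5:5664829-5694578 on the minus strand, and 40.8% of that span is exon in at least 1 transcript. Kcns3 (ENSMUSG00000043673.11) spans chr12:11090202-11151056 on the minus strand, with 5.2% exon. Evc (ENSMUSG00000029122.11) spans chr5:37289098-37336894 on the minus strand, with 16.1% exon. The lincRNA 4933404O12Rik (ENSMUSG00000097908.7) spans chr5:136919146-136937112 on the plus strand, with 26.4% exon. Ccdc85c (ENSMUSG00000084883.2) spans chr12:108203602-108275425 on the minus strand, with 6.04% exon. Slc5a11 (ENSMUSG00000030769.15) spans chr7:123214780-123273253 on the plus strand, with 4.72% exon. Cabp7 (ENSMUSG00000009075.2) spans chr11:4736892-4746778 on the minus strand, with 26.6% exon. Inpp5f (ENSMUSG00000042105.18) spans chr7:128611328-128696425 on the plus strand, with 9.78% exon. The spans differ widely in length and exon share, and no 2 of the spans overlap. A total of 6 annotated genes overlap a member (Gm48088 in Kcns3, Crmp1 and Gm42935 at Evc, Zmat5 at Cabp7, Gm16044 and Gm43580 in Inpp5f), and none of the 6 is a feature of these files. Where fragments of an overlapping gene were assigned is not known.

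As background on the 8 genes, the sequence just before the transcription start is shown for 3 of them, picked to include the lowest and highest GC content and the lincRNA. Whether these sequences bear on the fragment counts was not tested. Each line gives 250 bases before the most upstream annotated start, from RefSeq on GRCm38.p6, 5′ to 3′ on the gene's strand, with CG dinucleotides in capitals. Steap2 is at chr5:5694569-5694818 (minus strand), 4933404O12Rik at chr5:136918896-136919145 (plus strand) and Ccdc85c at chr12:108275394-108275643 (minus strand).
Steap2: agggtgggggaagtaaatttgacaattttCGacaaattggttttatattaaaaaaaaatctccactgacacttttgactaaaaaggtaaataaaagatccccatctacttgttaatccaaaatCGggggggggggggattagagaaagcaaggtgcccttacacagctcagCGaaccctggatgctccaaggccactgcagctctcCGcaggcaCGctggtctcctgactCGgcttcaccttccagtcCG
4933404O12Rik: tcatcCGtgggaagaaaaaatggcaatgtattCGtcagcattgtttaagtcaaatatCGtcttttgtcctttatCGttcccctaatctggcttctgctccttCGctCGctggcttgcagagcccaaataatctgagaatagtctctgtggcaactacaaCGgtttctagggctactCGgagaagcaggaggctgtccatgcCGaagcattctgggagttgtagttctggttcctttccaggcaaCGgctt
Ccdc85c: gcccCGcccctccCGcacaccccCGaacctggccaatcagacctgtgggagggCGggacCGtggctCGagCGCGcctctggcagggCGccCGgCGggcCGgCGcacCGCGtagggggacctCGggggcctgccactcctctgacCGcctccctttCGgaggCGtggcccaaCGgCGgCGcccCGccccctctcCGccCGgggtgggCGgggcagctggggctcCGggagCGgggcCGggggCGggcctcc
GC content was 47.2% in the Steap2 window with 7 CG dinucleotides, 47.6% with 10 in that of 4933404O12Rik, and 80.8% with 30 in that of Ccdc85c. The other members ran from 47.2% with 8 (Kcns3) to 72.4% with 21 (Cabp7), and Slc5a11 had 2 CG dinucleotides at 60.8% GC. The median of 27018 promoters of the same length was 52% GC with 6 CG dinucleotides. At least 10 CG dinucleotides were present in 5 of the 8 members, against 38.2% of all promoters. A search of both strands found the AP-1 letters TGANTCA, the NFAT letters TGGAAAA, the CRE letters TGACGTCA and the E-box letters CACGTG in none of the 8 windows. These are present in 6.85%, 6.02%, 1.6% and 6.04% of all promoters respectively. The TATA letters TATAAA were found in 1 member window, that of Steap2, and in 13% of all promoters. With a single match, no motifs overlapped. Absence of a match says only that those letters are not in this window.

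Depth set the precision at the low end. The 24 libraries held 1290918 to 3231626 counts over the 4408 features, and the smallest count in any file was 4. The 8 members had 4 to 19 counts each in resting cells and 10 to 71 in resting EVs, whereas stimulated cells gave 280 to 1090 and stimulated EVs 409 to 713. A count of 4 has an exact 95% Poisson interval of 1.09 to 10.2, which covers counting error only. Values below are counts per 1e6 counts (CPM) scaled by trimmed mean of M-values (TMM) factors, which were 0.563 to 0.659 in the resting libraries and higher in all others. Levels are compared between groups for the same gene and not between genes, since they are not adjusted for length. In bulk libraries, fewer cells that hold a fragment and less of it per cell cannot be told apart. Of 12 CD4 T cell markers only Cd3e and 4 microRNA genes (Mir142, Mir150, Mir155, Mir181a-1) are features here, and Cd4, Cd3g, Cd3d, Cd28, Trac, Lck and Mir146a are not. The 5 listed markers summed to between 240200 and 269900 CPM in resting cells and between 79010 and 105500 CPM in stimulated cells. In EVs they summed to between 173500 and 243500 CPM under resting conditions and between 55250 and 62340 CPM under stimulation. Most of the EV sum was Mir142, with means of 174600 CPM in resting and 47140 CPM in stimulated EVs. The markers did not move as one. In stimulated over resting EVs the log2 folds were -1.89 (Mir142), -3.05 (Mir150), -0.30 (Mir181a-1), -0.04 (Cd3e) and 0.86 (Mir155). No marker of myeloid cells (0 of 3) or B cells (0 of 3) is a feature here. The erythroid Mir451a (1 of 4 markers) ran from 9.68 to 31.4 CPM in resting cells and from 58.4 to 83.5 CPM in stimulated cells, from 48.2 to 95.9 CPM in resting EVs and from 33.1 to 71.9 CPM in stimulated EVs. The platelet and endothelial markers Mir126a and Pecam1 (2 of 2) summed to 121 to 135 CPM in resting cells and 112 to 124 CPM in stimulated cells, and to 163 to 179 CPM in resting EVs and 95.2 to 98.6 CPM in stimulated EVs. Mir200c, the epithelial and liver marker listed (1 of 5), ran from 27.3 to 36.1 CPM in resting cells and from 38.1 to 45.7 CPM in stimulated cells, with 41.7 to 57.7 CPM in resting EVs and 39.7 to 51.6 CPM in stimulated EVs. The part of other cell types in the results was not tested.

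In the contrast that chose them, the 8 features were 27.5-fold (Inpp5f) to 39.6-fold (Steap2) higher in stimulated than in resting cells. On the log2 scale Steap2 stood at 5.31 ± 0.31 (SE), Kcns3 at 5.25 ± 0.26, Evc at 5.19 ± 0.37 and 4933404O12Rik at 5.13 ± 0.26. Ccdc85c stood at 5.10 ± 0.24, Slc5a11 at 4.91 ± 0.28, Cabp7 at 4.83 ± 0.29 and Inpp5f at 4.78 ± 0.30. The next features in rank were Col6a6 at 4.76 ± 0.18 and Nsd1 at 4.74 ± 0.27, so Inpp5f at rank 8 and Col6a6 at rank 9 differ by far less than their errors. Together the 8 made up 0.00313 to 0.00459% of the counts in resting cells and 0.181 to 0.231% in stimulated cells. For each of the 8, the lowest value in the 18 libraries of stimulated, DMSO and GW4869 cultures, cells or EVs, lay above the highest value in the 6 resting libraries. The resting and stimulated cells among these libraries chose the members, so part of that separation follows from the choice. Its share over all features is not given here. The narrowest gap was that of Steap2, from 22.1 to 25.6 CPM, and for Kcns3 the gap ran from 19.8 to 103 CPM.

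**Figure D1:**
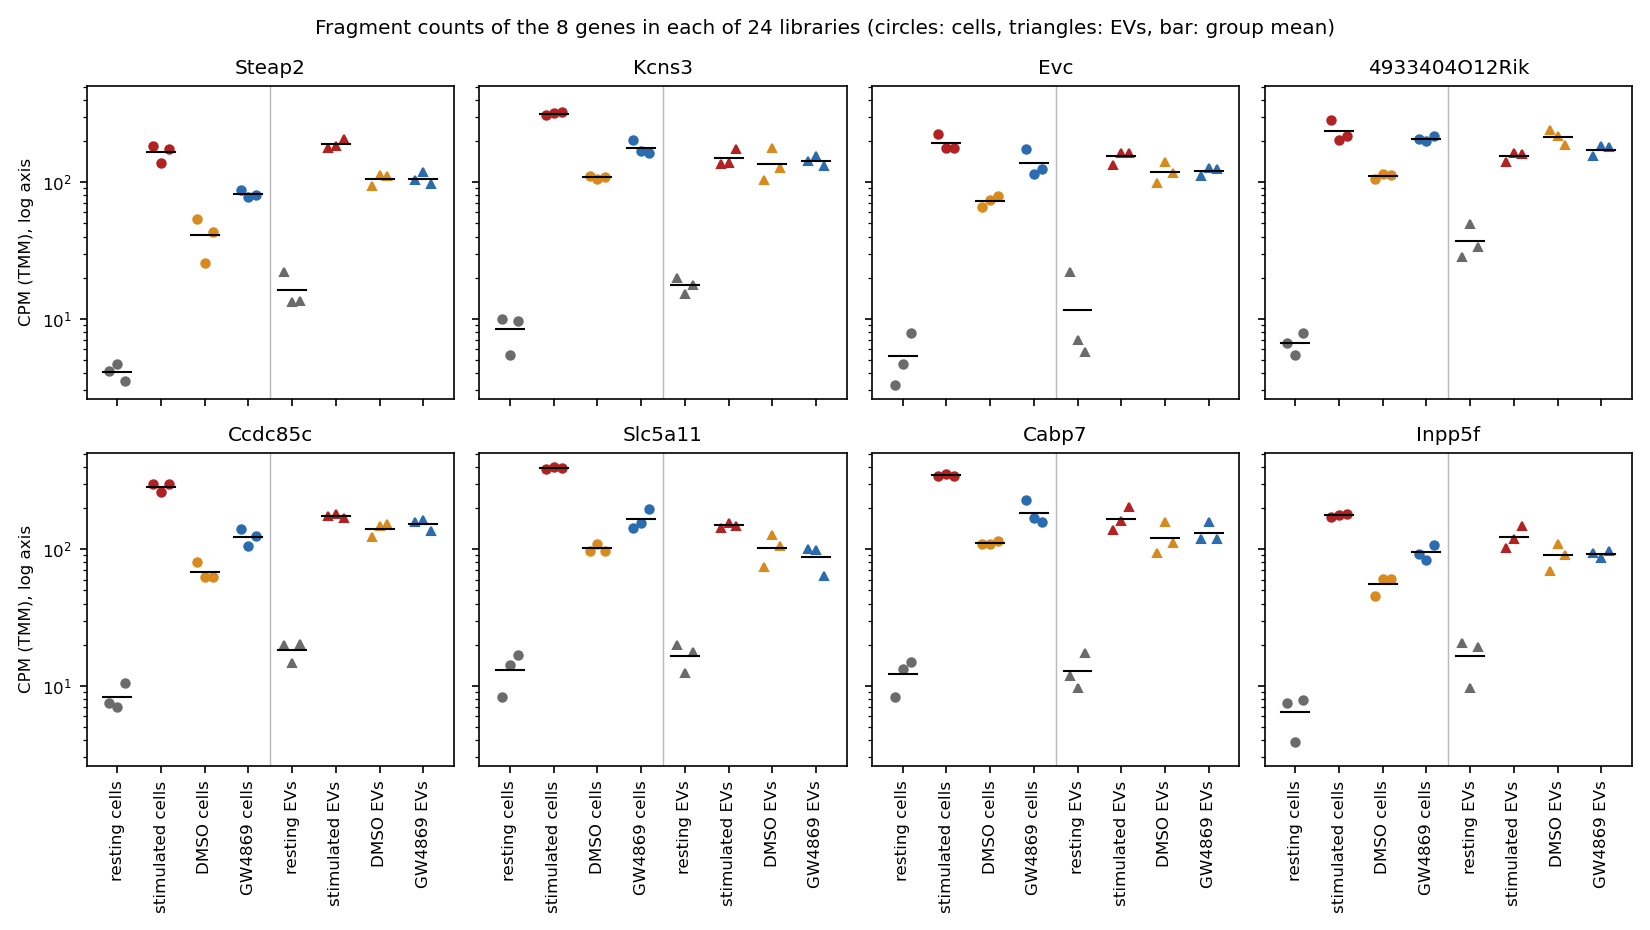
CPM (TMM-scaled, log axis) of each of the 8 genes in each of the 24 libraries, with cells as circles, EVs as triangles and the mean of each group of 3 as a bar. The 6 resting libraries (grey) sit below all 18 others in every panel, and DMSO cells sit below stimulated cells in every panel. The genes were chosen for their fold of stimulated over resting cells, so both patterns follow in part from the choice.

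Steap2, the metalloreductase, had 4.13, 4.70 and 3.52 CPM in resting cells and 183, 139 and 174 CPM in stimulated cells. It had 53.9, 25.6 and 43.1 CPM in DMSO cells and 87.0, 78.1 and 80.1 CPM in GW4869 cells. In EVs it had 22.1, 13.2 and 13.6 CPM under resting conditions, 178, 183 and 207 CPM under stimulation, 94.2, 113 and 110 CPM with DMSO and 103, 118 and 96.3 CPM with GW4869. Steap2 was the only member whose highest group mean was in EVs, 189 ± 15.2 CPM (SD, n = 3) in stimulated EVs against 166 ± 23.3 CPM in stimulated cells, and the libraries of those groups overlapped. GW4869 EVs and DMSO EVs followed at 106 CPM each and overlapped. The other steps down, to GW4869 cells at 81.8 ± 4.65, DMSO cells at 40.8 ± 14.3, resting EVs at 16.3 ± 5.04 and resting cells at 4.12 ± 0.591 CPM, had no overlap.

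Slc5a11, the inositol transporter, had 8.27, 14.1 and 16.7 CPM in resting cells and 388, 398 and 391 CPM in stimulated cells. It had 96.7, 110 and 97.5 CPM in DMSO cells and 143, 156 and 196 CPM in GW4869 cells. In EVs its values were 19.8, 12.5 and 17.8 CPM under resting conditions, 143, 157 and 149 CPM under stimulation, 74.2, 127 and 106 CPM with DMSO and 101, 98.2 and 64.1 CPM with GW4869. Stimulated cells, at 392 ± 4.96 CPM (SD, n = 3), stood clear of every other group, and resting cells (mean 13 CPM, SD 4.32) and resting EVs (16.7 ± 3.75 CPM) overlapped. GW4869 cells overlapped stimulated EVs, and DMSO EVs, DMSO cells and GW4869 EVs overlapped as neighbours in the order.

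Kcns3, the modulatory potassium channel subunit, had 9.92, 5.48 and 9.68 CPM in resting cells and 308, 320 and 324 CPM in stimulated cells. It had 111, 106 and 109 CPM in DMSO cells and 203, 170 and 164 CPM in GW4869 cells. In EVs it ran from 15.3 to 19.8 CPM under resting conditions, 136 to 174 with stimulation, 103 to 178 with DMSO and 131 to 156 with GW4869. Stimulated cells were highest and separate, the next 5 groups overlapped from neighbour to neighbour, and resting EVs and resting cells were each separate below them. Cabp7, the calcium-binding protein, showed the same first step, with 344 to 355 CPM in stimulated cells, 158 to 231 in GW4869 cells and 110 to 115 in DMSO cells. Its resting cells (8.27 to 15.0 CPM) and resting EVs (9.73 to 17.3 CPM) overlapped, as for Slc5a11.

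The lincRNA 4933404O12Rik had 6.61, 5.48 and 7.92 CPM in resting cells and 284, 204 and 217 CPM in stimulated cells. It had 105, 115 and 113 CPM in DMSO cells and 206, 200 and 218 CPM in GW4869 cells. In EVs its values were 28.5, 49.3 and 33.5 CPM under resting conditions, 141, 165 and 161 CPM under stimulation, 242, 217 and 187 CPM with DMSO and 156, 183 and 180 CPM with GW4869. It was the only member whose DMSO EVs (215 ± 27.9 CPM, SD, n = 3) stood second in the order of group means. They overlapped both stimulated cells (235 ± 42.8 CPM) and GW4869 cells (208 ± 9.27 CPM). Its resting EVs (37.1 ± 10.9 CPM) all lay above its resting cells (6.67 ± 1.22 CPM), as they did for Steap2, Kcns3, Ccdc85c and Inpp5f.

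Ccdc85c, the junction protein, had 7.44, 7.05 and 10.6 CPM in resting cells and 299, 262 and 298 CPM in stimulated cells. It had 80.5, 62.5 and 62.3 CPM in DMSO cells and 140, 106 and 124 CPM in GW4869 cells. Its EV values ran from 14.6 to 20.4 CPM under resting conditions, 170 to 182 under stimulation, 122 to 153 with DMSO and 137 to 165 with GW4869, and the EV groups of the DMSO and GW4869 cultures overlapped. Evc, the ciliary protein, had 178 to 226 CPM in stimulated cells, 114 to 176 in GW4869 cells, 65.4 to 78.9 in DMSO cells and 3.31 to 7.92 in resting cells. Evc had the widest spread within a group, 5.76, 6.95 and 22.1 CPM in resting EVs, a coefficient of variation of 78.6%. Inpp5f, the phosphatase, had 171 to 183 CPM in stimulated cells, 84.0 to 107 in GW4869 cells, 45.2 to 61.0 in DMSO cells and 3.92 to 7.92 in resting cells. For Evc, Ccdc85c and Inpp5f stimulated EVs came second to stimulated cells, with no overlap between the 2 groups.

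The first tested question was whether the fragments that were high in stimulated cells were also high in the vesicles of stimulated cultures, which the choice of members did not use. All 8 rose in stimulated over resting EVs at an adjusted p under 0.05 (edgeR quasi-likelihood test, Benjamini-Hochberg over all 4408 features), against 28.9% of all features called higher and 25.2% called lower. The vesicle libraries did not overlap for any of the 8, though how common such a separation was over all features is not given here. Their median log2 fold was 3.21, beside 0.09 over all features. Evc rose by 3.79 ± 0.33 (SE, edgeR adjusted p = 5.47e-10), Cabp7 by 3.66 ± 0.27 (adjusted p = 2.64e-11) and Steap2 by 3.55 ± 0.25 (adjusted p = 1.37e-11) on the log2 scale. Ccdc85c rose by 3.26 ± 0.21, Slc5a11 by 3.16 ± 0.26, Kcns3 by 3.08 ± 0.23 and Inpp5f by 2.89 ± 0.26. The lincRNA 4933404O12Rik rose least, by 2.06 ± 0.20 (edgeR adjusted p = 5.06e-09). In rank of fold over the 4408 features, the members ran from 16 (Evc) to 217 (4933404O12Rik). Scaling to library totals instead of TMM moved the median of all features by 1.12 and the calls over all features from 53.4% to 87.1% higher. All 8 members stayed higher under that scaling and under each of the other settings run.

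EVs of the DMSO cultures, a further set from stimulated cells, were also compared with resting EVs. The same resting EV libraries serve both comparisons, so the second adds only the DMSO libraries, and their vehicle cannot be told apart from the condition. All 8 rose (edgeR, Benjamini-Hochberg), where 31.3% of all features did and 25.5% fell, by 2.43 (Inpp5f) to 3.41 (Evc) on the log2 scale with a median of 2.83 beside 0.12 for all features. Steap2 was at 2.71 ± 0.25 (SE), Kcns3 at 2.95 ± 0.23, Cabp7 at 3.20 ± 0.27 and 4933404O12Rik at 2.53 ± 0.21. No DMSO EV library overlapped the resting EVs for any member, again without a share over all features. Set directly against stimulated EVs, DMSO EVs had 1 member called lower, where 9.91% of features were. Steap2 fell by 0.84 ± 0.21 (edgeR adjusted p = 0.00546), all 3 DMSO libraries lying below the stimulated ones. No member was called higher by edgeR, where 13.6% of features were, with 1 at an unadjusted p under 0.05 and 1 by DESeq2. That member is 4933404O12Rik, at 0.47 ± 0.19 (edgeR adjusted p = 0.0693) with no overlap between its libraries. The other 6 stood between -0.55 and -0.14. Fitted on the 2 groups alone, no member was called, and without DMSO EV replicate 2 there were 4.

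**Figure D2:**
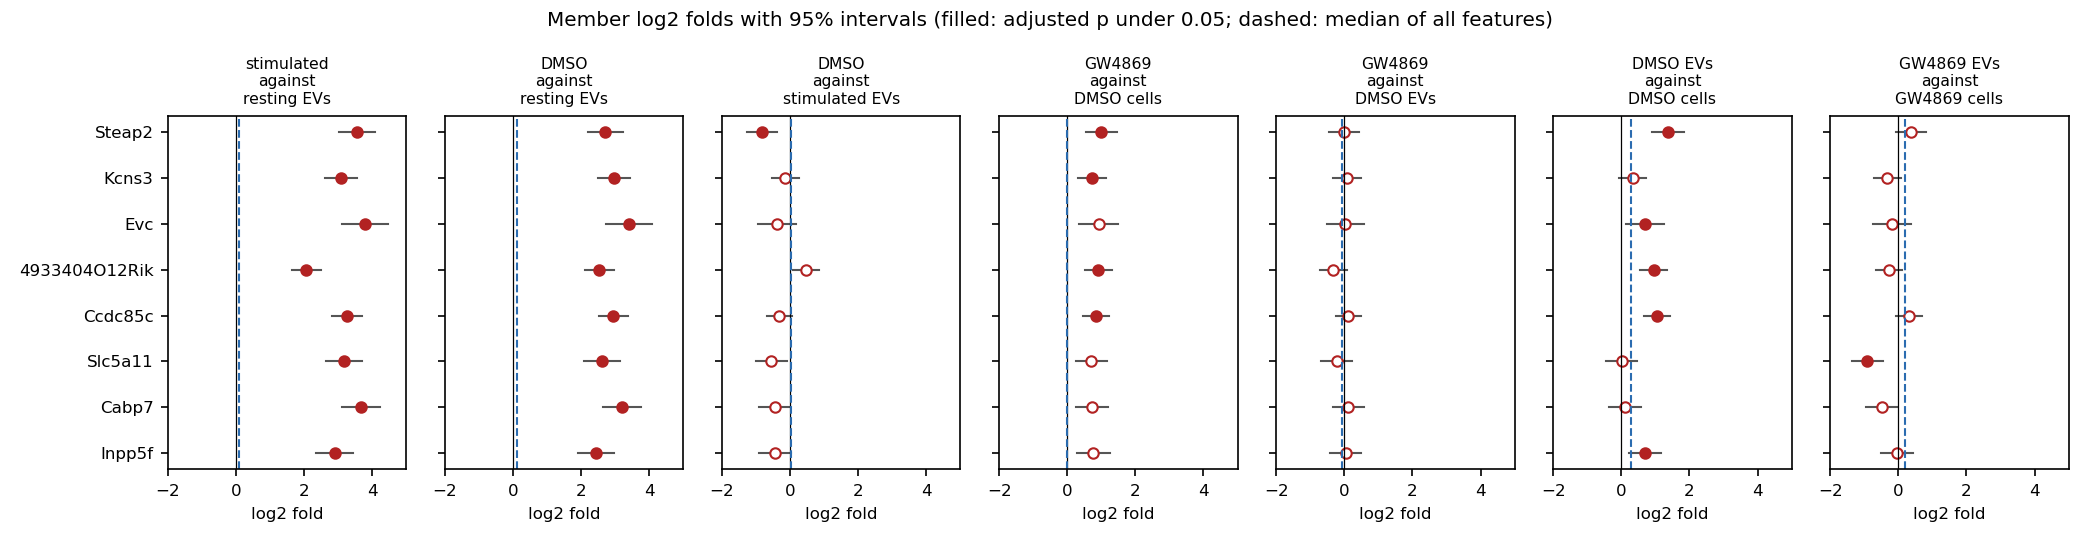
Log2 fold (x axis) of each of the 8 genes (rows) in the 7 tested comparisons, one panel each, with 95% intervals as lines, filled points for an adjusted p under 0.05 and a dashed line at the median of all 4408 features. All 8 points lie between 2.06 and 3.79 in stimulated against resting EVs, between 0.71 and 1.00 in GW4869 against DMSO cells, and between -0.32 and 0.12 in GW4869 against DMSO EVs.

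Cells of the pair with DMSO and GW4869 were also above resting cells. Because these comparisons share the resting cells with the contrast that chose the members, they are description. DMSO cells stood 2.96 (Slc5a11) to 4.06 (4933404O12Rik) above resting cells on the log2 scale, and GW4869 cells 3.66 (Slc5a11) to 4.96 (4933404O12Rik). Against stimulated cells, DMSO cells were lower for all 8 with no overlap, at -2.06 (Ccdc85c) to -1.08 (4933404O12Rik), or 0.239 to 0.474 of the level. This comparison shares the stimulated cells with the contrast that chose the members. Lower values elsewhere therefore follow in part from the choice and are description. The share of all features separated in this way is not given here. The vesicles of the same cultures, given above, stood between -0.84 and 0.47. Vesicle libraries took no part in the choice, so these ranges are not like for like.

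Inhibition of nSMase was tested in libraries that took no part in the choice. In cells, all 8 members had every GW4869 library above every DMSO library, with folds from 1.63 (Slc5a11) to 2.00 (Steap2) and a median log2 fold of 0.81 beside -0.01 for all features. The share of all features with libraries separated like this is not given here, so the separation is description. Of the 8, 4 passed as higher (edgeR, Benjamini-Hochberg), where 2.88% of all features did and 0.113% passed as lower. Steap2 rose by 1.00 ± 0.23 (SE, edgeR adjusted p = 0.0149), 4933404O12Rik by 0.90 ± 0.19 (adjusted p = 0.0125), Ccdc85c by 0.85 ± 0.19 (adjusted p = 0.0127) and Kcns3 by 0.72 ± 0.20 (adjusted p = 0.0448). Evc at 0.92 ± 0.28 (edgeR adjusted p = 0.0701), Inpp5f at 0.77 ± 0.23 (0.0733), Cabp7 at 0.73 ± 0.23 (0.0827) and Slc5a11 at 0.71 ± 0.22 (0.0939) did not pass, and all 8 were under 0.05 before adjustment. The calls, though not the direction, depended on which libraries were in the fit. Without DMSO cell replicate 2 or without replicate 3 no member passed in edgeR, and without any other single library of the comparison 2 or 3 did. Over all features the calls fell from 132 to 17 and 33 when those libraries were left out. With any 1 library left out the folds of the 8 stayed between 0.55 (Cabp7) and 1.26 (Steap2), and Steap2 itself ran from 0.75 to 1.26 and 4933404O12Rik from 0.87 to 0.93. Scaled to library totals, all 8 members passed, with 217 features in all.

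In vesicles, none of the 8 passed in GW4869 against DMSO EVs by edgeR, with 0 at an unadjusted p under 0.05 and 0 by DESeq2, where 7.89% of all features were higher and 9.69% lower. Values ran from -0.32 (4933404O12Rik, 95% interval -0.70 to 0.07) to 0.12 (Ccdc85c, -0.25 to 0.49). For Steap2 the interval was -0.44 to 0.44, which leaves out the size of its change in cells. The libraries overlapped for 7 members, and for 4933404O12Rik all 3 GW4869 values (156 to 183 CPM) lay below all 3 DMSO values (187 to 242 CPM). The difference between the effect in cells and in EVs was itself tested, a contrast added after the values were seen. It passed for 2 members, where 5.83% of features were higher in that contrast and 1.75% lower. The difference was 1.22 ± 0.27 (SE, edgeR adjusted p = 0.00625) for 4933404O12Rik and 1.00 ± 0.31 (adjusted p = 0.0479) for Steap2. The other 6 stood between 0.61 and 0.93 with adjusted p from 0.0669 to 0.251. The call for 4933404O12Rik held on leaving out each of the 12 libraries of the 4 groups in turn, and that for Steap2 on leaving out 2 of them. Without DMSO EV replicate 1, 5 members passed.

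Vesicles and cells of the same condition were then compared. In DMSO cultures 5 of the 8 were higher in EVs (edgeR, Benjamini-Hochberg), where 37% of all features were and 28.4% were lower, and the all-feature median was 0.29. Of the 2692 protein-coding features, the class of every member but 4933404O12Rik, 45.9% were higher and 15.1% lower. Their median was 0.65, close to the 0.70 of the members. Steap2 stood 1.37 ± 0.23 above cells on the log2 scale (edgeR adjusted p = 1.11e-05), Ccdc85c 1.04 ± 0.18 (2.9e-05) and 4933404O12Rik 0.95 ± 0.19 (0.00013). Evc and Inpp5f were both at 0.70. Kcns3 at 0.33, Cabp7 at 0.12 and Slc5a11 at 0.01 did not pass, and with size factors of the relative log expression (RLE) kind Cabp7 stood at -0.10 and Slc5a11 at -0.21, neither passing. With RLE 3 of the 8 passed, as did 3 without DMSO cell replicate 1, and all 8 passed as higher with library totals. In GW4869 cultures 1 of the 8 was called, lower in EVs, where 32% of features were lower and 36.2% higher. Of protein-coding features, 49.4% were higher and 17.1% lower there, with a median of 0.71 beside -0.23 for the members. Slc5a11 fell by 0.91 ± 0.22 (edgeR adjusted p = 0.000789), its cells standing at 165 ± 27.8 CPM and its EVs at 87.7 ± 20.5 CPM (SD, n = 3), with no overlap. The other 7 stood between -0.49 (Cabp7, adjusted p = 0.0558) and 0.37 (Steap2). These directions depended on the scaling: with library totals 5 of the 8 passed as higher, none as lower, and Slc5a11 was at -0.15, while with RLE 3 passed as lower. Leaving out single libraries, 2 members passed without GW4869 cell replicate 3 and 3 without GW4869 EV replicate 3. The share of all calls that were higher in EVs moved from 53% to 74.9% with library totals in the GW4869 cultures and from 56.6% to 74.8% in the DMSO cultures.

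For the resting and stimulated cultures the same comparison shares libraries with the choice of members and is description. Resting EVs stood 0.11 (Cabp7) to 2.47 (4933404O12Rik) above resting cells on the log2 scale, beside a median of 0.1 over all features. There 5 members were separate and 3 overlapped. Stimulated EVs stood at -1.39 (Slc5a11) to 0.19 (Steap2), beside a median of 0.07 over all features, with 7 members wholly below the cells and Steap2 overlapping. The members were chosen as low in resting and high in stimulated cells, so both directions follow in part from the choice. The share of all features with libraries separated in these ways is not given here. In the stimulated, DMSO and GW4869 cultures alike, Steap2 had the highest vesicle-to-cell value of the 8 and Slc5a11 the lowest.

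The ratio of the Steap2 count to the Slc5a11 count in the same library does not depend on any scaling factor, and it was chosen after these values were seen, so it has no test. In cells it ran from 0.211 to 0.500 under resting conditions, 0.350 to 0.472 under stimulation, 0.233 to 0.557 with DMSO and 0.408 to 0.608 with GW4869. In EVs it ran from 0.765 to 1.12, from 1.17 to 1.39, from 0.885 to 1.27 and from 1.02 to 1.5 in the same order. Every EV library lay above every cell library of its condition, and of the other conditions too. Since these members were taken for having the highest and lowest vesicle-to-cell values in the stimulated, DMSO and GW4869 cultures, the separation there follows from that choice.

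**Figure D3:**
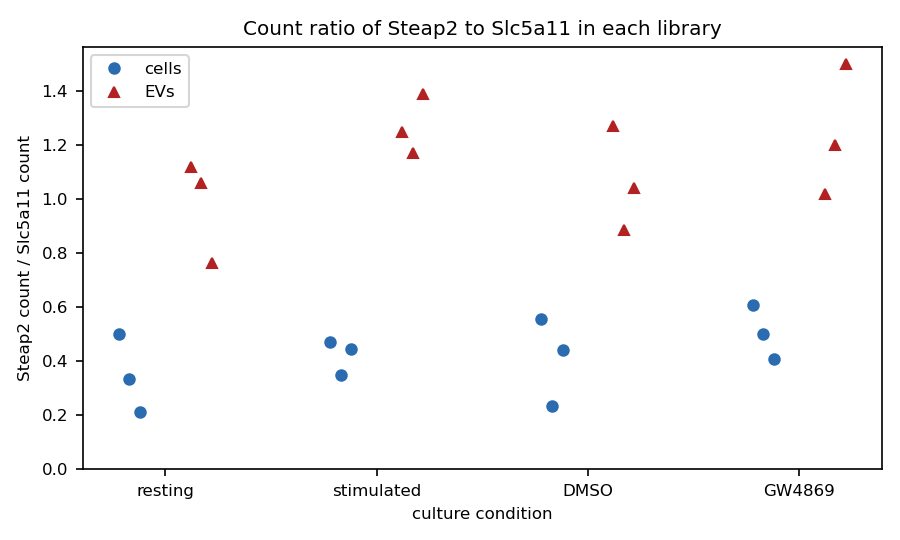
Count of Steap2 divided by count of Slc5a11 (y axis, from 0) in each of the 24 libraries by culture condition, cells as circles and EVs as triangles. The 12 cell libraries lie between 0.211 and 0.608 and the 12 EV libraries between 0.765 and 1.5.

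Ribosomal RNA fragments were higher, as the members were, in stimulated than in resting libraries. In the other comparisons they went with the members in some and apart from them in others. The 68 features annotated as rRNA held 0.383 to 0.527% of counts in resting cells and 4.74 to 5.98% in stimulated cells, and 1.13 to 1.69% in resting EVs against 7.3 to 7.53% in stimulated EVs. Rn18s-rs5, an 18S rRNA-like feature on chromosome 17, had 3473 ± 192 CPM (SD, n = 3) in resting cells and 30270 ± 775 CPM in stimulated cells. In EVs it rose from 14940 ± 1050 CPM to 41750 ± 3880 CPM, a log2 fold of 1.48 ± 0.17 (SE, edgeR adjusted p = 5.76e-08), beside 2.06 to 3.79 for the members. In GW4869 against DMSO cells it stood at 0.43 ± 0.17 (edgeR adjusted p = 0.227) and the median of all rRNA features at -0.17, beside 0.81 for the members. In EVs it fell by 0.49 ± 0.17 (adjusted p = 0.0447), where no member was called. From DMSO cells to DMSO EVs it rose by 1.46 ± 0.17, beside a median of 0.70 for the members, whereas the median of all 68 rRNA features was -1.03. From GW4869 cells to EVs Rn18s-rs5 rose by 0.54 ± 0.17, whereas the median of all rRNA features was -1.23, beside -0.23 for the members. In DMSO against stimulated cells, given as description, Rn18s-rs5 stood at -0.74 ± 0.17 and the rRNA median at 0.63. The members stood between -2.06 and -1.08 there. Spliced transcripts of the 8 members share no run of 18 bases with the 67 rRNA features that have a transcript sequence or with the lincRNAs Gm42418 and AY036118, which overlap Rn18s-rs5. Rn18s-rs5 itself has no entry in GENCODE M21, so its own sequence was not searched. It spans chr17:39846354-39848202 and Gm42418 spans chr17:39846958-39848788, so the 2 lincRNAs cover only part of it. Shared 18S sequence was therefore not fully checked. Such a run was present in 8 of 2761 coding and lincRNA features searched (0.29%). Introns were not searched, and the part of rRNA fragments in the members' counts was not tested.

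**Figure D4:**
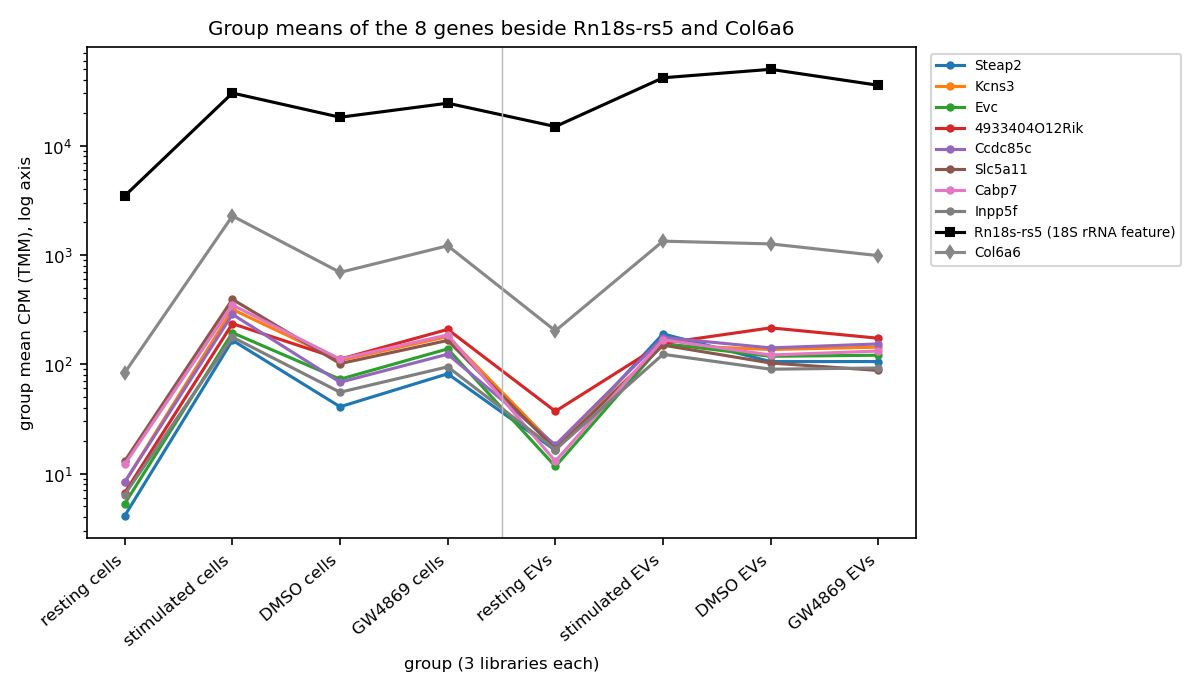
Group mean CPM (TMM-scaled, log axis) of the 8 genes, of Rn18s-rs5 and of Col6a6 in the 8 groups of 3 libraries, with lines drawn only to link the points of a feature. All features are lowest in resting cells, Col6a6 runs parallel to the members from 83.8 to 2272 CPM in cells, and Rn18s-rs5 is higher in DMSO EVs than in stimulated cells whereas no member is.

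The profiles of the 8 members over the 24 libraries were alike, with Pearson r of log2 CPM between 0.87 and 0.98 for the 28 pairs. That is a description across libraries that share groups and depth. All 8 were chosen on the same contrast of stimulated over resting cells, so alike profiles follow in part from the choice. Once group means were taken out, r ran from -0.35 to 0.74 with a median of 0.37, so members followed each other less closely within groups. For each member the most similar other feature among the 4408 was found by the same measure (n = 24 libraries). For Kcns3, Ccdc85c and Inpp5f it was Col6a6, a collagen chain (r = 0.984, 0.988 and 0.985). For Slc5a11 it was Nsd1, a histone methyltransferase (r = 0.989), and for Cabp7 it was Slc5a11 (r = 0.979). For Steap2 it was Itsn1, an endocytic scaffold (r = 0.987), for Evc the unclassified transcript Gm37194 (r = 0.977), and for 4933404O12Rik the zinc finger gene Zfp791 (r = 0.993). Col6a6 and Nsd1 are also the features just below the members in the ranking. Col6a6 had group means of 83.8 CPM in resting cells, 2272 in stimulated cells, 693 in DMSO cells, 1213 in GW4869 cells and 202, 1337, 1261 and 986 CPM in the EVs of those conditions.

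Relatives of the members were looked up in lists chosen with earlier results of these data known. No other member of the STEAP, SLC5 or CCDC85 families is a feature here. Of 10 other voltage-gated potassium channel genes, 6 rose and 0 fell in stimulated over resting EVs (edgeR, 0 lower at an unadjusted p under 0.05, and 4 higher and 0 lower by DESeq2), against 28.9% of all features higher, with a median of 0.73. Kcnq1 rose by 2.20 ± 0.39 (SE), beside 3.08 ± 0.23 for Kcns3 itself. Of 5 other Hedgehog and cilium genes 3 rose by edgeR and 2 by DESeq2, among them the receptor Ptch1 by 1.80 ± 0.39 and the transcription factor Gli3 by 1.43 ± 0.37. All 4 other calcium sensor genes rose by both tools, Kcnip1 by 1.47 ± 0.23 and Caln1 by 1.34 ± 0.27. Inpp4b, the other phosphoinositide phosphatase listed, was at 0.26 ± 0.23 (edgeR adjusted p = 0.347). In GW4869 against DMSO cells, 0 of the 10 channel genes and 0 of the 5 Hedgehog genes passed by edgeR, at an unadjusted p under 0.05 or by DESeq2, and 1 of the 4 calcium sensors did (Kcnip1, 0.87), where 2.88% of all features were higher and 0.113% lower. At that share, lists of this size say little.

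Of 46 genes induced in activation 7 are features, and in stimulated over resting EVs 1 rose and 3 fell by edgeR, and 1 rose and 4 fell by DESeq2. Of all features, 28.9% were higher and 25.2% lower in that comparison by edgeR. Cd44, an adhesion receptor of activated T cells, rose by 2.03 ± 0.24 (SE), whereas the amino acid transporter Slc7a5 fell by 3.28 ± 0.34, Irf8 fell by 2.03 ± 0.32 and the cyclin Ccnd2 fell by 1.99 ± 0.26. Of 16 genes of naive and resting T cells 8 are features, and 5 rose by edgeR and 3 by DESeq2, with Foxo3 at 3.51 ± 0.42 and Tcf7, a transcription factor of naive T cells, at 3.04 ± 0.36. In DMSO against resting EVs 3 of these 8 rose and 1 fell (edgeR, and 1 and 1 by DESeq2), where 31.3% of all features were higher and 25.5% lower by edgeR. At such shares, lists of this size say little. Tcf7 fell by 1.96 ± 0.41 (edgeR adjusted p = 0.000244) and Foxo3 stood at 0.49 ± 0.42 (adjusted p = 0.334), whereas all 8 members rose in both comparisons, which share the resting EVs. By class, 36.5% of 2692 protein-coding features were higher and 18.3% lower in stimulated over resting EVs, and 24% of 154 lincRNA features were higher and 27.3% lower.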

How the data were processed

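Small RNA libraries were made from total RNA of cells and EVs, 3 per group in 8 groups. The deposited files list whole-number counts per named feature with its class, 1 file per library. The authors mapped with Bowtie to mm10 (GRCm38), per the submitters' processing notes. Version, mismatch and multi-mapping settings, and whether counting used the strand, are not given in the sources used here. A read from a repeated sequence could therefore be counted under a gene it did not come from.

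Each file had 4441 lines, 33 of them repeats of a line with the same name, class and counts, which left 4408 features. No feature had a count under 4, so features rare in any library are not in these tables, and the default edgeR filter (minimum count 10) removed 0. One quasi-likelihood fit over all 24 libraries (edgeR 4.0.16, limma 3.58.1, R 4.3.3, TMM factors) gave every contrast, with Benjamini-Hochberg adjustment over all features and a call at an adjusted p under 0.05. Log2 CPM used a prior count of 2. The fit was tested on simulated data. Replicates of a group differed by 3.54 to 63.5 times the sampling variance (chi-square per degree of freedom), so none was a duplicate. Alternatives were RLE size factors, library totals, no filter, at least 20 counts in 3 libraries, a replicate block, only the 2 groups compared, DESeq2 1.42.0, and leaving out each library.

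The members, the gene lists and the tests were chosen with earlier results of these data known. Contrasts that share libraries with stimulated against resting cells have no test. Named besides the members are genes that overlap them, the 2 features ranked just below them, the most similar feature of each, and up to 2 highest and 2 lowest passing genes of each list. One such gene is not reported here. The difference between the GW4869 effects in cells and EVs was added after the values were seen. Promoter windows came from RefSeq on GRCm38.p6, and all 8 symbols matched there and in GENCODE M21.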

Additional observations from a re-analysis of the deposited data

Results flagged for a closer look

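The effect of GW4869 differed between cells and EVs for 2 of the 8 features by a test of the difference itself, added after the values were seen (edgeR quasi-likelihood test, Benjamini-Hochberg over 4408 features, 5.83% of features higher). For 4933404O12Rik the difference on the log2 scale was 1.22 ± 0.27 (SE, edgeR adjusted p = 0.00625), from 0.90 in cells and -0.32 in EVs. Its call held in all 19 settings run, with adjusted p from 0.00117 to 0.0416. For Steap2 the difference was 1.00 ± 0.31 (edgeR adjusted p = 0.0479), from 1.00 in cells and 0.00 in EVs. Its call held in 7 of the 19 settings, with adjusted p from 0.0224 to 0.184. Rn18s-rs5 stood at 0.43 ± 0.17 in cells (edgeR adjusted p = 0.227) and fell by 0.49 ± 0.17 in EVs (adjusted p = 0.0447), and the median of all rRNA features was -0.17 in cells and -0.35 in EVs. Their part in these differences was not tested.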

How the results depend on the processing

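All 8 members kept their direction and call in stimulated and in DMSO against resting EVs under all 104 alternative values each. With library totals the members called became 8 in GW4869 against DMSO cells (217 features in all), 8 in DMSO EVs against cells, 5 in GW4869 EVs against cells, 2 in DMSO against stimulated EVs and 1 for the difference of GW4869 effects (162 in all). The median fold of stimulated against resting cells moved to 5.93. Signs reversed there in GW4869 EVs against cells for Kcns3 (0.43), Evc (0.56), 4933404O12Rik (0.49), Cabp7 (0.26) and Inpp5f (0.73), and in GW4869 against DMSO EVs for 4933404O12Rik (0.00) and Slc5a11 (0.12). The share of higher calls moved from 44.9% to 84.1% in GW4869 against DMSO EVs and from 55.1% to 87.1% in DMSO against resting EVs. With RLE factors 65 features were called in GW4869 against DMSO cells, and 3 members each in DMSO and in GW4869 EVs against cells, with 1 for the difference of effects. Slc5a11 (-0.21) and Cabp7 (-0.10) reversed in DMSO EVs against cells with RLE and with DESeq2. DESeq2 called 3 members in DMSO EVs against cells, 4 in GW4869 EVs against cells and 2 in DMSO against stimulated EVs. With only the 2 groups compared, DMSO against stimulated EVs gave 0 members and 349 features, GW4869 against DMSO EVs 0 features, and DMSO EVs against cells 3 members with Slc5a11 at -0.03. The cause of these moves was not tested.

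Leaving out each library gave these ranges of members called and of features called: 8 to 8 and 1983 to 2283 (stimulated against resting EVs), 8 to 8 and 2167 to 2551 (DMSO against resting EVs), 1 to 4 and 669 to 1272 (DMSO against stimulated EVs), 0 to 3 and 17 to 81 (GW4869 against DMSO cells), 0 to 0 and 253 to 1138 (GW4869 against DMSO EVs), 3 to 6 and 2616 to 2947 (DMSO EVs against cells), 1 to 3 and 2835 to 2950 (GW4869 EVs against cells), and 1 to 5 and 148 to 529 (difference of GW4869 effects). The lowest counts of features came without stimulated EV replicate 2 (669), DMSO cell replicate 2 (17), DMSO EV replicate 2 (253) and GW4869 EV replicate 3 (148). With 1 library left out, a group of 2 shares the spread of all groups. Values near 0 changed sign within these ranges: Slc5a11 (-0.17 to 0.20) and Cabp7 (-0.12 to 0.27) in DMSO EVs against cells, Evc (-0.31 to 0.02) and Inpp5f (-0.11 to 0.12) in GW4869 EVs against cells, and Kcns3 (-0.37 to 0.03) in DMSO against stimulated EVs. In GW4869 against DMSO EVs the ranges were -0.07 to 0.19 (Steap2), -0.09 to 0.31 (Kcns3), -0.08 to 0.20 (Evc), -0.03 to 0.37 (Cabp7), -0.11 to 0.22 (Inpp5f) and -0.41 to 0.09 (Slc5a11).

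The correlations of same-numbered replicates ran from -0.37 to 0.33 and in no comparison were all over 0.1, and whether cells and EVs of a number share a culture is not stated in the labels, so the numbers were not used as pairs. At most 3 samples of a comparison (DMSO EVs against cells) correlated best with their own number. A replicate block called 3 members and 118 features in GW4869 against DMSO cells and the same number of members as without it in each of the other comparisons. With 4 to 19 counts per member in resting cells, folds over resting cells carry counting error as well as the spread between libraries.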
